A study of Mus musculus with 54 samples.

Results

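Lung metastases of the mouse mammary carcinoma line 4T1 were compared with cultured clones of the same line by RNA-seq. The lung metastases were chosen by their sample labels and made up 4 of 54 libraries, from the 2 specimens Lung_1 and Lung_2, each with a library lettered A and a library lettered B. They were set against 46 libraries of 23 clones, again with an A and a B library each, and the mean of the 2 libraries stood for each specimen or clone. Each clone had been grown from 1 sorted 4T1 cell. Clones E and T are labelled as intravasating, which means that their cells entered the blood in a pool of clones, and the other 21 as non-intravasating. The 4 libraries of 2 orthotopic tumors, Tumor_1 and Tumor_2, were left out of the main comparison and served only to show where the lung metastases differed from tumor tissue. No drug, genetic change, host strain, host age or time after injection is given for any of these groups. The labels give all groups the same 4T1 source and the same culture medium, and call the lung samples only lung metastases. Sorting or renewed culture of the tumor cells after removal is not stated, nor is it said whether the specimens came from separate mice, or whether A and B are separate extractions. With 2 specimens, every p-value below rests mostly on the spread among the clones, which the lung specimens were assumed to share.

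Metastatic cells in the lung meet host macrophages, fibroblasts and endothelium, which are absent from a culture dish, and immune cytokines. Interferons, which are among those cytokines, signal through Stat proteins and Irf9 to switch on antiviral genes whose promoters carry a repeat of the letters GAAA. Carcinoma cells are joined by tight junctions, desmosomes and E-cadherin, and can shift to a mesenchymal state with more matrix protein and fewer junctions. Bulk RNA-seq of a specimen adds up the RNA of all its cells. A change in the share of a cell type and a change in RNA per cell cannot be told apart in such a sum.

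The lung libraries held between 16327693 and 20368740 recovered reads and the clone libraries from 8849257 to 31609870. The A libraries of both lung specimens stood apart for low genes. They held a read for 20278 and 19868 genes, against 16604 and 16972 in the B libraries and 14130 to 16807 in the clone libraries. Genes with 1 to 5 reads numbered 5270 and 5090 in A and 2743 and 2828 in B.

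Of 14107 genes tested with limma, 1628 (11.5%) were higher and 838 (5.94%) were lower in the lung metastases at a Benjamini-Hochberg adjusted p under 0.05. A clone median of 100 normalized counts or more was found for 415 of 1628 higher genes and 829 of 838 lower genes. Of all 14107 genes tested, 9598 had such a median. The filter of 10 normalized counts in at least 2 libraries sets part of this split. A gene near 0 in all clones enters the test only through the lung libraries and has no room to be lower. Among the higher genes 763 had a lung mean under 50 normalized counts. The library letter moved these totals, with 913 higher and 408 lower genes called in all libraries, in A alone and in B alone. So did the scaling. The median difference over all genes was 0.06 on the log2 scale, higher genes were 66.0% of the calls, and after quantile normalization 1063 were higher and 1006 lower, so that higher genes were 51.4% of the calls. Without Lung_1 the counts were 709 higher and 108 lower, and without Lung_2 they were 472 and 165. Without a model, both specimens lay above all 23 clones for 1246 genes (8.83%) and below all of them for 804 (5.7%). The plot of the difference against the clone mean shows this split between weakly and strongly expressed genes.

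**Figure D1:**
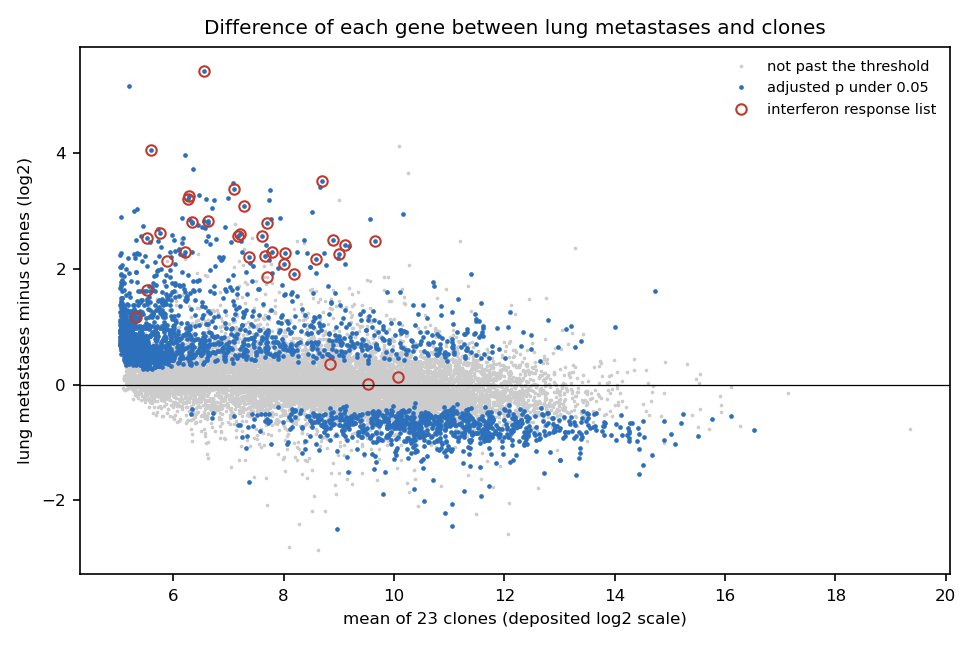
Difference between lung metastases and clones (log2, deposited scale, y axis) against the mean of the 23 clones (log2, x axis) for 14107 genes, with genes past the adjusted threshold in blue and interferon response genes ringed in red. The 1628 higher genes lie mostly at low clone means and the 838 lower genes at high clone means, a split that the filter on low values sets in part.

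Among the leading higher genes, the smallest adjusted p belonged to Lyz2, the lysozyme of macrophages and other myeloid cells (chr10:117277331-117282321 on the minus strand, mm10). Its normalized counts were 691 and 1011 in Lung_1 and 1659 and 2004 in Lung_2, and 0 to 6.48 over the clones, with a median of 0.457. All 4 lung libraries lay far above every clone. The log2 difference was 5.16 ± 0.18 (adjusted p = 1.75e-17), where ± gives the SE of the limma contrast here and below. The tumors also carried Lyz2, at 517 in Tumor_1 and 337 in Tumor_2.

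Other leading genes encode surface proteins. Icam1, which leukocyte integrins bind (chr9:21015985-21028817 on the plus strand), stood at 541 and 792 in Lung_1 and 972 and 972 in Lung_2, against 2.89 to 355 over the clones, with a median of 20.6. No clone reached the lung specimens, the highest being clone T, and the log2 difference was 3.29 ± 0.58 (adjusted p = 1.86e-04). Fgfr1, a receptor of fibroblast growth factors (chr8:25513654-25575718 on the plus strand), gave 925 and 1038 in Lung_1 and 1149 and 980.4 in Lung_2, and 0 to 617 over the clones, with a median of 13.7. Its level varied widely among clones and the difference of 3.73 ± 0.91 had an adjusted p of 0.00515. Among genes that clones express at a median of 100 counts or more, the secreted galectin ligand Lgals3bp rose by 2.96, Osmr, the receptor of oncostatin M, by 2.98, Phex, a membrane peptidase, by 2.51 and Dlc1, a GTPase-activating protein, by 2.42, all on the log2 scale.

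Without Lung_1 the adjusted p was 7.06e-18 for Lyz2, 0.00676 for Icam1 and 0.0902 for Fgfr1. Without Lung_2 these values were 3.01e-15, 0.0303 and 0.118. Fgfr1 thus lost its call in both cases and Lyz2 and Icam1 kept theirs. Of Lgals3bp, Osmr, Phex and Dlc1, none passed without Lung_1, with adjusted p of 0.0827, 0.0578, 0.325 and 0.209, or without Lung_2, with 0.251, 0.181, 0.264 and 0.272.

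Among all lists, the interferon response had the most members past the threshold. Of 34 genes on the list, all tested, 28 rose and 0 fell (0 also at an unadjusted p under 0.05), against 11.5% higher and 5.94% lower over all genes, and the median difference was 2.45 against 0.06. The list was drawn up from genes known to respond to interferon, and the sequences at their start sites show a feature many of them share. RefSeq windows of 300 bases (GRCm38.p6, 250 before to 50 after the start) were searched for the letters GAAANNGAAA on both strands, as GAAANNGAAA or TTTCNNTTTC. A gene was counted once if any of its windows held a match. The letters occur in 14 of 21 called list genes that have a window (66.7%). Of members with a window that missed the threshold 2 of 5 have them (40%), and so 16 of 26 of the whole list (61.5%). Among genes with a window, they occur in 383 of 10287 of all genes tested (3.72%). They occur in 69 of 1101 other higher genes (6.27%) and in 19 of 662 lower genes (2.87%). A match is a description of the letters, not proof of a bound site. The following 60-base stretches, on the strand of each gene and 5′ to 3′, show 1 match in capitals for 7 called genes.
Ifit1, chr19:34640760-34640819, plus strand: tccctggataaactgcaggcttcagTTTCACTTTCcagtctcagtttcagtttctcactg
Isg15, chr4:156200862-156200921, minus strand: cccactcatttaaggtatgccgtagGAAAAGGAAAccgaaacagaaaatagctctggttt
Oas3, chr5:120777700-120777759, minus strand: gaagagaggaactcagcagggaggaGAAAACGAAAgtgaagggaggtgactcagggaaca
Stat2, chr10:128270251-128270310, plus strand: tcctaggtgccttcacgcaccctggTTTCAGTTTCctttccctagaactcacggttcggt
Rsad2, chr12:26456538-26456597, minus strand: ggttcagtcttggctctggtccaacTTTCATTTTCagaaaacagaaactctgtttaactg
Cxcl10, chr5:92349068-92349127, minus strand: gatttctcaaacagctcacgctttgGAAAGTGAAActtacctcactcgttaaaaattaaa
Bst2, chr8:71537568-71537627, minus strand: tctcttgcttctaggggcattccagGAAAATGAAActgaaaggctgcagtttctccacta

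Among the transcription factors of the pathway, Stat2, Irf7 and Irf9 rose, while Irf1 had a difference of 0.13 (limma adjusted p = 0.848). Stat2 (chr10:128270559-128292849 on the plus strand) had normalized counts of 2092 and 1861 in Lung_1 and 4614 and 3841 in Lung_2, against 216 to 2503 over the clones, with a median of 472. Clone G, the highest clone, lay above the libraries of Lung_1 and below those of Lung_2, and the other 22 clones lay below both specimens. The log2 difference was 2.41 ± 0.47 (adjusted p = 6.29e-04). Irf7, which amplifies interferon production, rose by 2.83, and Irf9, the partner of Stat2, by 2.30. The cytosolic RNA sensors Ddx58 and Ifih1 rose by 2.49 and 2.17.

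Effectors gave the widest differences. Ifi44 (chr3:151730922-151749960 on the minus strand) had 1874 and 1733 in Lung_1 and 9889 and 7456 in Lung_2, against 3.31 to 6292 over the clones, with a median of 17.6, a log2 difference of 5.42 ± 1.01 (adjusted p = 3.56e-04). The libraries of Lung_2 were the highest of all, and those of Lung_1 lay below clone G. Oas2, which makes the 2-5 oligoadenylate that activates RNase L, had 384 and 269.6 in Lung_1 and 1942 and 1389 in Lung_2, against 0 to 1808 over the clones, with a median of 2.36. Clone G, the highest clone, lay between the libraries of Lung_2 and above those of Lung_1, and the difference was 4.06 ± 0.82. Ifit1, which binds foreign RNA ends, Isg15, a ubiquitin-like modifier, and Usp18, the protease that removes it, rose by 2.80, 2.08 and 3.26. Cxcl10, a chemokine for T cells, rose by 2.20, and Bst2, which tethers virus particles, by 2.22. The members that missed the threshold were Isg20, Irf1, Ifit2, Mx1, Gbp2 and Tgtp1, with differences of 0.02, 0.13, 0.36, 1.64, 1.86 and 2.13.

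The 2 specimens and 1 clone differed strongly in these genes. Lung_2 exceeded Lung_1 for 28 of the 28 called members, by 1.47 to 5.80 times with a median of 3.01, while the median over all genes tested was 1.02. Clone G, a cultured clone labelled non-intravasating, was the highest clone for 27 of 28, the exception being Oasl1. Lung_1 exceeded clone G for 1 called member and Lung_2 for 10, whereas both specimens exceeded the other 22 clones for 25 of 28. The list made up 0.176% of the normalized counts in Lung_1, 0.465% in Lung_2 and 0.488% in clone G, against a clone median of 0.0363%. The call depended on Lung_2. Without it 1 of 34 members passed, Irf9 with an adjusted p of 0.0368, while 16 were higher at an unadjusted p under 0.05 in limma. Without Lung_1 19 passed. Without clone G 31 passed, and with A or B libraries alone 28 and 26. A like ratio of Lung_2 to Lung_1 was found for Xist, at 3.30, and for the called macrophage genes, at a median of 2.88, and their part in the interferon difference was not tested. The plot of interferon genes shows these levels.

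**Figure D2:**
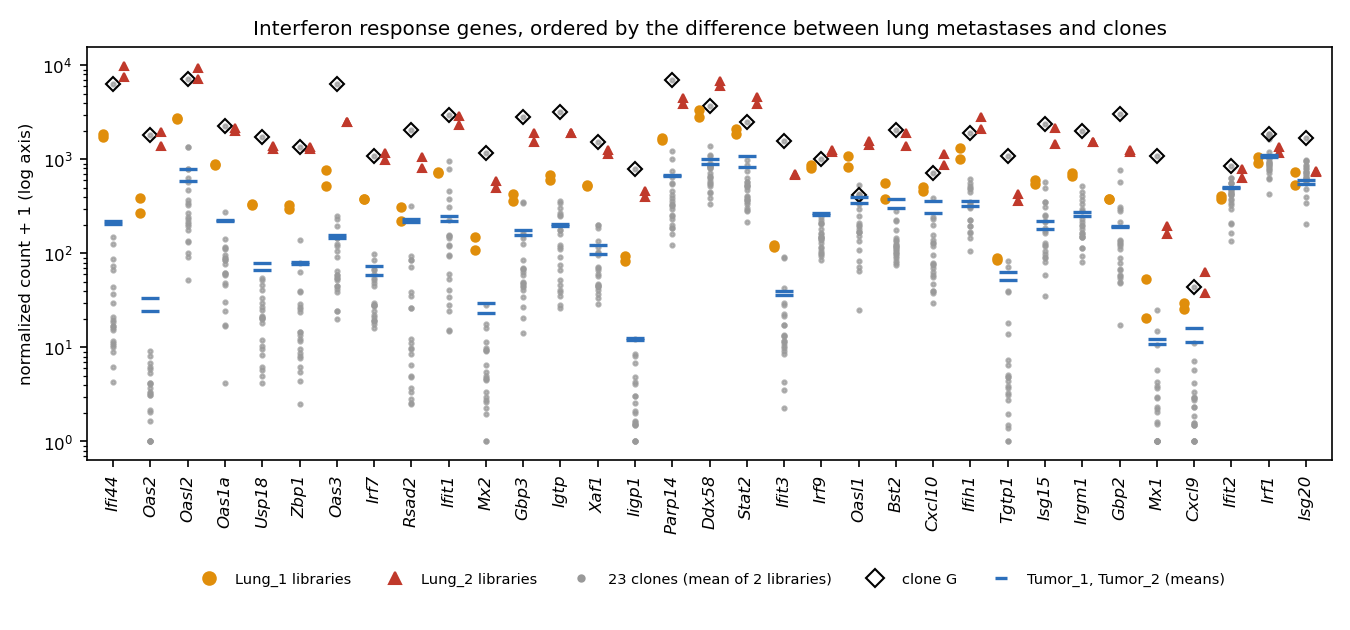
Normalized count + 1 (log axis) of interferon response genes in the libraries of Lung_1 (orange circles) and Lung_2 (red triangles), in 23 clones (gray points, clone G as an open diamond) and as means of each tumor (blue dashes). Lung_2 lies above Lung_1 and both mostly above the clones other than clone G.

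Antigen presentation moved in part with the interferon genes. Of the MHC class I list 3 of 16 rose (18.75%, against 11.5% over all genes), with a median of 0.79. They were Nlrc5, the transactivator of class I genes (2.03), the peptide transporter Tap1 (1.96) and the light chain B2m (1.00). Of the MHC class II list 5 of 6 rose, among them the invariant chain Cd74 with 189.5 and 298 in Lung_1 and 488 and 457 in Lung_2, against 3.87 to 353 over the clones, with a median of 35.5. Lung_1 lay below the highest clone, clone C, and Lung_2 above it. Class II is made chiefly by professional antigen-presenting cells, and H2-Aa and H2-Ab1 rose by 0.89 and 0.76. Without Lung_1 the class I and class II counts were 1 and 2, and without Lung_2 they were 0 and 2 in limma, with 1 class I gene higher at an unadjusted p under 0.05. Near-identical H2 genes share reads, so their single values are uncertain.

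Complement genes rose in 9 of 16 cases (56.25%, against 11.5% over all genes), with a median of 1.11. C4b, the mouse complement component C4, gave 89.8 and 73.5 in Lung_1 and 396 and 369 in Lung_2, against 3.48 to 21.9 over the clones, with a median of 7.73. All lung libraries were above every clone, Lung_2 the highest, and the tumors stood at 6.03 in Tumor_1 and 7.39 in Tumor_2. The complement list as a whole made up 0.0218% of normalized counts in Tumor_1 and 0.0235% in Tumor_2. Its share was 0.00965% in Lung_1 and 0.0184% in Lung_2. The clone median was 0.00372%, and clone G, the highest clone, reached 0.0884%, above both lung specimens. In limma 6 of 16 members were higher in the tumors than in the clones. Against the tumors 4 members were higher in the lung metastases and 0 lower. C1qa, C1qb and C1qc, which macrophages make, rose by 1.12, 2.28 and 2.24. Without Lung_1 8 complement genes passed, and without Lung_2 6.

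Markers of host cells were used to check the lung label. Those of lung epithelium were scarcely detected above the clones. Sftpc, the surfactant protein that defines type 2 cells and is among the most abundant RNAs of lung, had normalized counts of 2.69 and 0.743 in Lung_1 and 2.48 and 6.6 in Lung_2, and 0 to 3.97 over the clones, with a median of 0.529. Only 1 lung library, Lung_2_B, lay above the highest clone, and the gene was too low to be tested. Scgb1a1 of airway club cells had 0.898 and 2.97 in Lung_1 and 2.48 and 0.825 in Lung_2, inside the clone range of 0.765 to 6.47. Sftpb, a further surfactant protein, and Ager of type 1 cells had adjusted p of 0.761 and 0.918. Single members did pass, where 11.5% of all genes were higher and 5.94% lower. Lyz1 rose by 1.42 and Lamp3 fell by 1.02 among 6 type 2 genes, and Pdpn rose by 0.70 among 7 type 1 genes, whereas 0 of 3 airway genes passed in limma, with 0 at an unadjusted p under 0.05.

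The filter on low values left 6 of 12 type 2, 7 of 10 type 1 and 3 of 12 airway genes, as well as 13 of 20 macrophage, 15 of 16 pan-leukocyte, 9 of 20 endothelial and 12 of 16 fibroblast genes. A marker that the clones lack passes it only through the specimens where it is high, so counts and medians of such lists describe the tested members and support nothing by themselves. This applies as well to members of the program lists that the clones lack. A clone median of 10 counts or more was reached by 5 of 18 complement and 2 of 11 MHC class II genes. It was reached by 10 of 18 collagen, 12 of 23 basement membrane, 13 of 29 chemokine and 11 of 18 mesenchymal genes.

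Several immune cell markers were higher than in the clones but low in level. The counts of called genes in this paragraph stand beside 11.5% higher over all genes. Ptprc, the common leukocyte antigen CD45, had 12.6 and 14.9 in Lung_1 and 66.2 and 60.2 in Lung_2, against 0 to 8.46 over the clones, with a median of 1.61. Lung_2 was above Lung_1, and 11 of 15 pan-leukocyte genes rose. Of the macrophage list 9 of 13 rose, with a median of 1.12. The scavenger receptor Msr1 gave 93.4 and 98.8 in Lung_1 and 378 and 303 in Lung_2, against 0 to 0.765 over the clones, with a median of 0, and Mrc1, Fcgr1, Cd163 and Trem2 rose as well. Of the defining macrophage genes, Csf1r had an adjusted p of 0.0737 and Cd68 one of 0.358. Of the defining neutrophil genes, S100a8 had 44.9 and 42.3 in Lung_1 and 29.8 and 42.1 in Lung_2, with an adjusted p of 0.467, and S100a9 had under 1 count in every lung library, although 3 of 10 neutrophil genes rose. Endothelial genes rose in 4 of 9 cases, among them Tie1 by 1.16 and Pecam1, the endothelial antigen CD31, by 0.69. Hbb-b1, the adult beta globin, was at 0 in every lung library and every clone. Without Lung_2 the calls were 7 macrophage, 9 pan-leukocyte and 2 endothelial genes, and without Lung_1 they were 8, 10 and 2. With B libraries alone 2 endothelial genes rose.

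Summed over each list, 8 of 17 host cell types had a higher share of normalized counts in the lung metastases than in the clones, namely fibroblasts, monocytes and dendritic cells, T and NK cells, B and plasma cells, endothelium, erythroid cells and platelets, macrophages and pan-leukocyte genes. The test was an exact two-sided permutation test over 300 assignments of 2 specimens among 25, adjusted over the 17 lists. The smallest p this test can give is 0.00333 before adjustment. Macrophage genes made up 0.00615% in Lung_1 and 0.0113% in Lung_2, against 0.0013% to 0.0137% over the clones (adjusted exact p = 0.0243). The highest clone, clone G, lay above both specimens. Pan-leukocyte genes made up 0.0463% in Lung_1 and 0.0433% in Lung_2, against 0.00846% to 0.0468% over the clones (adjusted exact p = 0.0496). The fibroblast list reached 0.0682% in Lung_1 and 0.087% in Lung_2, against 0.0299% to 0.0644% over the clones (adjusted exact p = 0.0142), but its largest member in the lung metastases was Macf1, a cytoskeletal linker that many cells express. In the monocyte and dendritic list 99.6% was Fn1, fibronectin, which the clones make in quantity. The B and plasma cell list made up 0.000631% in Lung_1 and 0.000578% in Lung_2, of which 58.8% was Cr2. The T and NK cell list made up 0.000759% and 0.000944%, of which 44.6% was Lck. The highest clones reached 0.000397% and 0.000579% for these lists. For endothelium clone G (0.01327%) lay between Lung_2 (0.01313%) and Lung_1 (0.01331%). For erythroid cells and platelets clone G (0.00165%) lay between Lung_1 (0.00143%) and Lung_2 (0.00206%). The largest member in the lung metastases was Eng for endothelium (52.9% of the list) and Pf4 for erythroid cells and platelets (35.9%). For pan-leukocyte genes it was Lcp1 (38.9%) and for macrophages Cd14 (17.3%). The lists of type 1, type 2 and airway epithelium had adjusted exact p of 0.543, 0.866 and 0.993. With A libraries alone 5 lists passed and with B alone 8. Xist, the RNA of the inactive X chromosome (chrX:103460366-103483254 on the minus strand), gave a further difference, with 119 and 87.7 in Lung_1 and 414 and 269.6 in Lung_2, against 0.874 to 7.83 over the clones, with a median of 2.7, and 66.7 in Tumor_1 and 104 in Tumor_2. The clones scarcely expressed it and both lung specimens did, with a limma log2 difference of 2.56 ± 0.17, adjusted p = 1.36e-11. How far host cells account for the genes raised in the lung metastases was not tested. Among defining lymphocyte genes, Cd3e had 4.49 and 0 in Lung_1 and 0 and 0 in Lung_2, although 2 of 5 T and NK cell genes and 1 of 4 B and plasma cell genes rose. These counts and those that follow stand beside 11.5% higher and 5.94% lower over all genes. Of the erythroid and platelet list 2 of 4 rose, of the pericyte list 3 of 8 and of the monocyte and dendritic list 6 of 9. Of the mesothelium list 1 of 2 rose, Wt1, while Msln had a negative difference. Msln made up 98.4% of that list in the lung metastases. The share of the list was 0.0104% in Lung_1 and 0.00861% in Lung_2, below the clone median of 0.0156%. Without Lung_2 the erythroid, pericyte and monocyte counts were 1, 0 and 2 in limma, with 2 pericyte genes higher at an unadjusted p under 0.05, and without Lung_1 they were 1, 3 and 3. The 3 neutrophil calls became 1 without Lung_1 and 0 without Lung_2, with 2 at an unadjusted p. Mast cell, muscle and nerve lists gave 0 calls of 2, 4 and 5 in limma, with 0, 0 and 1 lower and 0 higher at an unadjusted p under 0.05. The plot of host lists shows the summed shares.

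**Figure D3:**
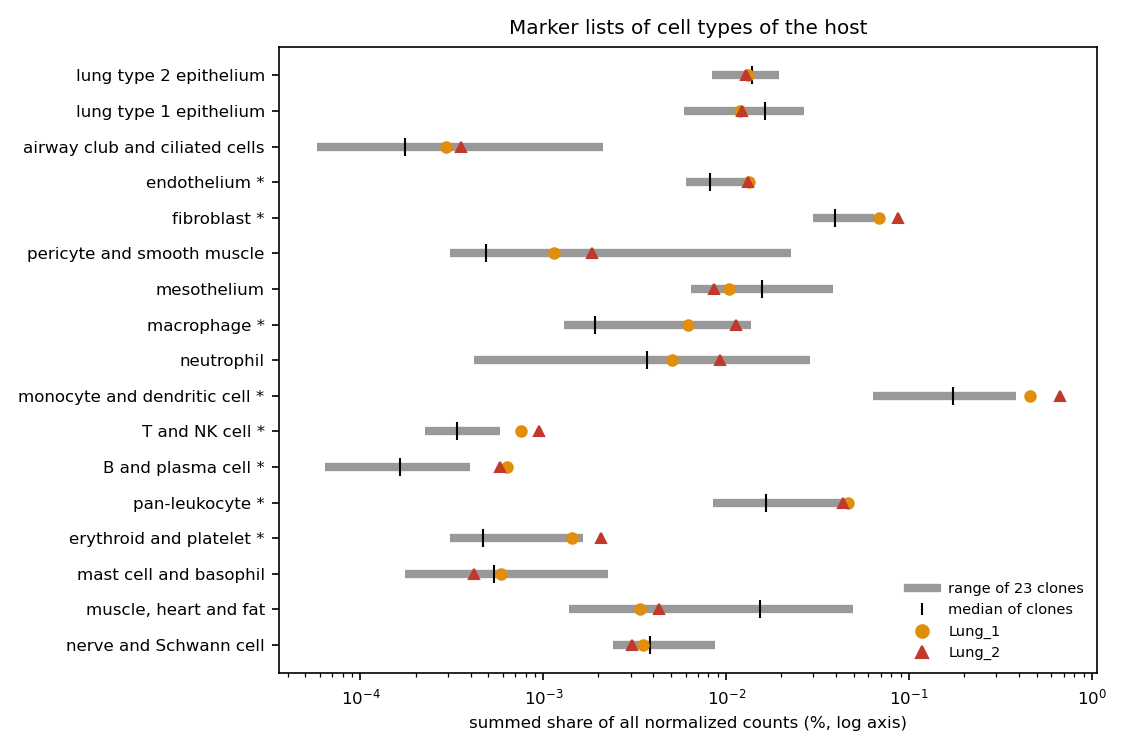
Share of normalized counts (percent, log axis) on each of 17 host cell type lists in Lung_1 and Lung_2, with the range of the 23 clones as a gray bar and their median as a tick, and an asterisk where the adjusted exact p is under 0.05. Airway and lung epithelium lists lie within the clone range, and 8 lists carry an asterisk.

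Matrix genes rose beside these markers. Of the collagens 7 of 17 rose (41.2%, against 11.5% over all genes), with a median of 1.14. Col1a1, a chain of type I collagen, had 44.9 and 46.1 in Lung_1 and 343 and 331 in Lung_2, against 0 to 11.5 over the clones, with a median of 1.55. Col6a3, a chain of type VI collagen, had 120.4 and 91.4 in Lung_1 and 287 and 226 in Lung_2, against 0 to 6.76 over the clones, with a median of 1.7. Both were higher in Lung_2 than in Lung_1, and over the called collagens the ratio of Lung_2 to Lung_1 had a median of 7.40. Fibroblast markers moved with them, with 7 of 12 genes higher, of which Col1a1, Col1a2 and Col3a1 are on both lists. Dcn, decorin, a defining fibroblast gene, had 61.1 and 70.6 in Lung_1 and 204 and 205 in Lung_2, against 0 to 71.8 over the clones, with a median of 0.535. Pdgfra, the other defining gene, was already expressed by the clones, with 1337 and 1648 in Lung_1 and 3619 and 3169 in Lung_2, against 117 to 1756 over the clones, with a median of 326. The part of fibroblasts in the collagen difference was not tested. Without Lung_1 7 collagens passed and without Lung_2 7.

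Basement membrane genes rose in 7 of 17 cases (41.2%, against 11.5% over all genes). Among them were the heparan sulfate proteoglycan Hspg2 (1.11) and the linker nidogen Nid1 (1.06). Of the matrix proteases and their inhibitors 7 of 33 rose (21.2%). Mmp12, the macrophage elastase, had 136 and 198 in Lung_1 and 365 and 388 in Lung_2, against 0 to 16.3 over the clones, with a median of 0.906. Timp3, an inhibitor of metalloproteinases, had 122 and 135 in Lung_1 and 409 and 381 in Lung_2, against 0.437 to 61.3 over the clones, with a median of 8.09. All lung libraries lay above the highest clone for both, with differences of 3.01 ± 0.21 and 2.48 ± 0.29. Plat, tissue plasminogen activator, and the cathepsin Ctss rose by 2.05 and 2.08. Among chemokines and cytokines 6 of 24 rose (25%), with Ccl6 (2.27) and Ccl9 (1.61) leading. Without Lung_1 these 3 counts were 4, 5 and 5, and without Lung_2 they were 2, 4 and 3. With B libraries alone 4 basement membrane genes rose. In the tumors 10 of 24 chemokine and cytokine genes were higher than in the clones by limma. The median difference of that list from the clones was 1.25 in the tumors and 0.47 in the lung metastases. Its share of normalized counts was 0.272% in Tumor_1 and 0.243% in Tumor_2, against 0.0563% in Lung_1 and 0.0603% in Lung_2. The clone median was 0.0462%, and clone G, the highest clone, reached 0.61%, above both lung specimens.

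Mesenchymal genes rose in 9 of 17 cases (52.9%, against 11.5% over all genes), with a median of 0.94. Fn1, fibronectin, was abundant in all samples, at 56950.4 and 78770.3 in Lung_1 and 109335 and 95581 in Lung_2, against 10976 to 63122 over the clones, with a median of 30112. Among the lung libraries only Lung_1_A lay below the highest clone, clone A. The log2 difference was 1.61 ± 0.45 (adjusted p = 0.0123). Zeb1, a repressor of epithelial genes, rose by 1.42, with means of 76.1 in Lung_1 and 108 in Lung_2 against a clone median of 8.79. Lox, which crosslinks collagen, and Prrx1, a transcription factor of mesenchyme, rose by 1.33 and 1.00. Cdh2, N-cadherin, was at 0 in all clones and at 3.59 and 4.46 in Lung_1 and 14.1 and 10.7 in Lung_2. Cdh2 thus entered the test only through Lung_2. Vim, vimentin, which the clones already expressed strongly, had a difference of 0.36 (adjusted p = 0.752). Fibroblasts also express many of these genes, and the fibroblast markers given above moved with them, a part that was not tested. Without Lung_1 7 members passed and without Lung_2 3.

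Of 36 epithelial genes tested 3 fell, among them Ocln and Perp, against 5.94% of all genes, and 0 rose (0 also at an unadjusted p under 0.05). The difference was negative for 32 of 36, with a median of -0.75 against 0.06 over all genes. Ocln, occludin of tight junctions (chr13:100496507-100552718 on the minus strand), had 33.2 and 43.8 in Lung_1 and 31.5 and 33.8 in Lung_2, against 49.1 to 1666 over the clones, with a median of 409. All 4 lung libraries were below every clone mean. The log2 difference was -2.49 ± 0.74 (adjusted p = 0.0197). Perp, a desmosome protein, had a difference of -1.93 ± 0.66 (adjusted p = 0.0445). Cdh1, E-cadherin, showed 1946 and 2612 in Lung_1 and 1393 and 1288 in Lung_2, against 217 to 24203 over the clones, with a median of 8889. The lung values lay inside the wide range of the clones and did not pass (adjusted p = 0.309), nor did Epcam (0.201) or the keratin Krt8 (0.46). Without Lung_1 0 members fell in limma and without Lung_2 0, with 3 and 2 lower at an unadjusted p under 0.05. With A libraries alone 4 fell and with B alone 2. Against clones E and T alone the median difference of the list was -0.25, and these clones themselves lay -0.51 from the other clones. The plot of junction and mesenchymal genes shows both lists.

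**Figure D4:**
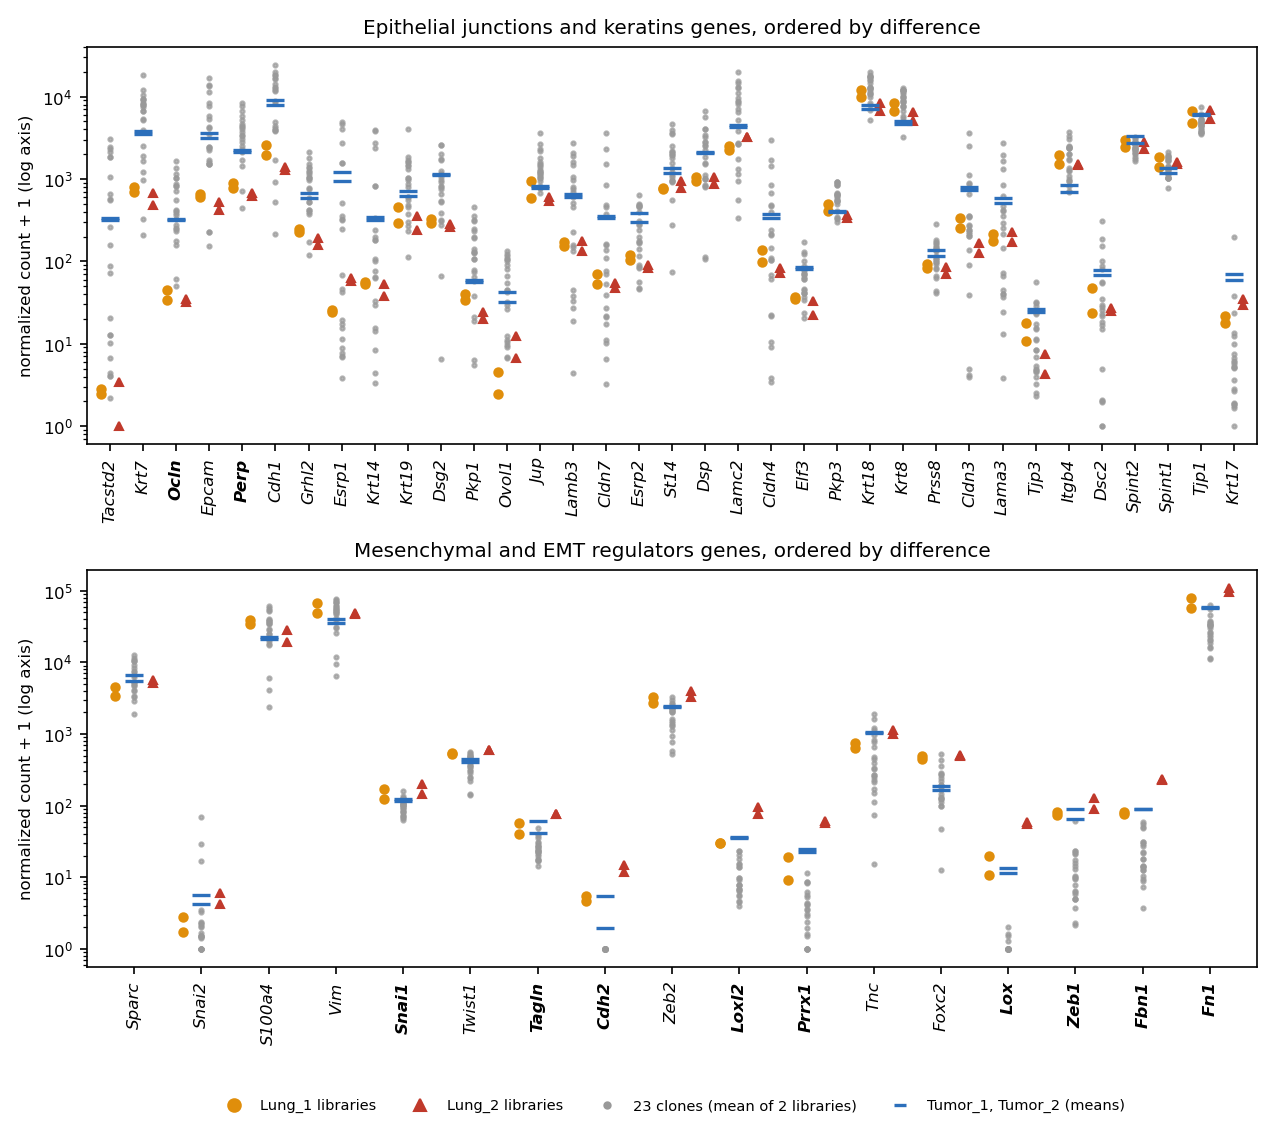
Normalized count + 1 (log axis) of epithelial and mesenchymal genes in the libraries of Lung_1 (orange circles) and Lung_2 (red triangles), in 23 clones (gray points) and as means of each tumor (blue dashes), with names in bold for genes past the adjusted threshold. Ocln lies below every clone in the lung libraries, while Cdh1 lies within the clone range.

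Among the named lower genes the smallest adjusted p belonged to an enzyme of DNA repair. Ung, the glycosylase that removes uracil from DNA (chr5:114130386-114139323 on the plus strand), had 561 and 324 in Lung_1 and 396 and 543 in Lung_2, against 1369 to 3013 over the clones, with a median of 2199.7. The groups did not overlap. The log2 difference was -2.05 ± 0.20 (adjusted p = 1.27e-08). In the tumors Ung stood at 914 in Tumor_1 and 415 in Tumor_2. Trmt61a, a methyltransferase of tRNA, had 455 and 178 in Lung_1 and 324 and 559.9 in Lung_2, against 794 to 3067 over the clones, with a median of 1965. Here too every lung library was under the lowest clone, with a difference of -2.22 ± 0.36. Further falls among well expressed genes were Pard6b, a cell polarity adaptor (-2.01), the zinc importer Slc39a10 (-1.84), the kinase Pak4 (-1.65), the Arf3 GTPase (-1.57) and the Hsp90 partner Fkbp4 (-1.52). Without Lung_1 or Lung_2 Pard6b had adjusted p of 0.188 and 0.156 and Slc39a10 of 0.112 and 0.16, while Pak4, Arf3 and Fkbp4 kept their calls. Without Lung_1 the adjusted p of Ung was 1.17e-05 and that of Trmt61a 0.0149, and without Lung_2 they were 1.09e-05 and 0.00274.

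Lower genes of lipid, energy and proliferation lists are set against 5.94% lower over all genes. Of 25 cholesterol synthesis genes 24 had a negative difference, with a median of -0.97, and 2 fell, Stard4, a cholesterol carrier (-1.20), and Acat2, an acetoacetyl-CoA thiolase (-0.87). These 2 calls fell to 0 in limma without Lung_1, without Lung_2 and with B libraries alone, where 2, 1 and 8 members were lower at an unadjusted p under 0.05. Against clones E and T the median of the list was -0.54, and these clones lay -0.55 from the others. Of the oxidative phosphorylation genes 6 of 39 fell, among them cytochrome c, Cycs (-0.97), and of the ribosomal protein genes 6 of 42 fell, among them Rps14 (-0.79). Of 40 cell cycle genes 8 fell, among them the transcription factor E2f1 (-1.31), the ribonucleotide reductase Rrm1 (-0.83) and the sliding clamp Pcna (-0.61), and the cyclin Ccne2 rose (0.57), a call that was lost without either specimen and with A or B libraries alone. The proliferation marker Mki67 had a difference of 0.39 (adjusted p = 0.126). The lower counts of the last 3 lists depended on the library, with 11, 10 and 10 lower genes in A alone and 3, 1 and 3 in B alone. The medians of the oxidative phosphorylation, ribosomal and cell cycle lists were -0.22, -0.16 and -0.20. Without Lung_1 the lower genes of these 3 lists numbered 0, 0 and 2, and without Lung_2 2, 0 and 2, in limma. At an unadjusted p under 0.05, 7 oxidative phosphorylation and 9 ribosomal genes were lower without Lung_1 and 5 ribosomal genes without Lung_2. With B libraries alone 1 ribosomal gene rose.

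The TGF-beta, Wnt and Notch and metastasis lists had 15.4%, 12.9% and 16% higher members, near the 11.5% over all genes. Counts of the other lists below stand beside 11.5% higher and 5.94% lower over all genes. Of the TGF-beta and BMP list 4 of 26 rose, namely the matrix protein Tgfbi (1.76), the BMP antagonist Grem1 (1.50) and the receptors Tgfbr1 (0.82) and Bmpr1b (0.65). Of the Wnt and Notch list 4 of 31 rose, namely the Wnt antagonists Dkk3 (1.27) and Dkk2 (1.06), the feedback gene Axin2 (0.90) and the ligand Wnt4 (0.67). Genes linked to metastasis in tumor studies rose in 4 of 25 cases, among them the growth factor Ereg (1.80) and Angptl4 (0.93), whereas osteopontin, Spp1, had an adjusted p of 0.112. Of 32 hypoxia and glycolysis genes 1 rose, the lactate exporter Slc16a3. Among serine synthesis and ATF4 genes Aldh1l2 rose and Psat1 and Shmt2 fell, of 25. Of 20 unfolded protein response genes the chaperone partner Dnajb9 rose (0.95), and Dnajb11, Canx and Manf fell. Of 21 targets of p53 3 fell, Perp, Ei24 (-1.20) and Bbc3. Single calls were the fall of Txnrd1 among 21 NRF2 targets, of Fads1 among 14 fatty acid genes and of Hist1h1b among 15 histone genes, and the rise of Nt5e, the surface enzyme CD73, among 19 YAP targets (1.91) and of the metallothionein Mt1 among 13 glucocorticoid targets. Of 29 immediate early genes the transcription factors Klf4 (1.20) and Fos (0.99) rose. Of 12 long noncoding RNAs 4 rose, Xist, H19 (2.33), Kcnq1ot1 and Meg3. Circadian clock genes gave 0 calls of 16 in limma, with 1 higher and 1 lower at an unadjusted p under 0.05. Without Lung_1 the higher genes of the TGF-beta, Wnt and Notch, metastasis and noncoding lists numbered 4, 4, 4 and 3, and without Lung_2 they numbered 1, 4, 3 and 3. With A libraries alone 7 Wnt and Notch genes rose.

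Several other calls of these lists were lost when a specimen was left out. Without Lung_1 and without Lung_2 the lower genes of the unfolded protein response fell from 3 to 0 in both cases, with 1 and 6 lower at an unadjusted p under 0.05 in limma. Those of the serine synthesis and ATF4 list fell from 2 to 0 in both cases, with 3 and 1 at an unadjusted p. The calls of the NRF2, fatty acid, histone and glucocorticoid lists were also lost in both cases, where 1, 1, 2 and 0 members passed unadjusted in the same direction without Lung_1 and 1, 1, 0 and 2 without Lung_2. Those of p53 targets fell from 3 to 1 and those of immediate early genes from 2 to 1. The calls of Slc16a3, Nt5e, Aldh1l2 and Dnajb9 were lost without Lung_2. With A libraries alone 5 unfolded protein response and 4 ATF4 genes were lower, and with B alone 2 and 1. With B alone the histone list had 0 lower genes, 0 also at an unadjusted p, and 2 higher genes.

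Serpine2 and Slpi, secreted protease inhibitors, were named after their values were seen. Serpine2 had 11662 and 12950.1 in Lung_1 and 19536 and 19018 in Lung_2, against 19 to 9029.5 over the clones, with a median of 1546. Slpi had 16030.1 and 18446 in Lung_1 and 17555 and 25255 in Lung_2, against 26.7 to 10949 over the clones, with a median of 1428. All 4 lung libraries lay above the highest clone for both genes, while the wide spread among clones left limma adjusted p of 0.0698 and 0.0855. The tumors lay inside the clone range, with Serpine2 at 2037 in Tumor_1 and 1126 in Tumor_2 and Slpi at 4852 in Tumor_1 and 3815 in Tumor_2.

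Against the orthotopic tumors, with the spread shared by all 27 specimens and clones, 142 of 14235 genes (0.998%) were higher and 9 (0.0632%) lower in the lung metastases. Raised genes included Lyz2 (log2 difference 1.49 ± 0.25, adjusted p = 7.18e-04), C4b (2.28 ± 0.30, adjusted p = 1.88e-05), Col6a3 (1.64 ± 0.23, adjusted p = 7.18e-05) and Timp3 (1.62 ± 0.38, adjusted p = 0.0237), all from limma. Leaving out each specimen in turn gave 52 to 216 higher and 1 to 5 lower genes. Of 34 interferon genes 0 passed in this limma fit, 19 were higher at an unadjusted p under 0.05, and the median difference was 2.04. Of the epithelial and cholesterol lists 0 members passed in that fit as well, with 2 and 1 lower at an unadjusted p under 0.05. Taken as 2 against 2 specimens alone, 2292 genes (16.1%) were higher and 2031 (14.3%) lower. The fit of 2 against 2 alone called 28 of 34 interferon genes higher, 28 of 36 epithelial genes lower, with a list median of -0.96, and 22 of 25 cholesterol genes lower, with a median of -0.79. The interferon list differed from the clones by a median of 0.50 in the tumors, with 0 members called in limma and 3 higher at an unadjusted p under 0.05, and by 2.45 in the lung metastases. Both values share the same clones.

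Each lung specimen was also set beside every clone, a comparison added after the data were seen. The distance is the mean absolute log2 difference over the genes tested. Lung_1 lay nearest to clone E at 0.365, followed by clone T at 0.369, clone B at 0.375 and clone D at 0.378, and farthest from clone J at 0.592. Lung_2 lay nearest to clone E at 0.394 and then to clones B, D and N at 0.407, 0.412 and 0.419, with clone T the next at 0.421. Clones E and T, the intravasating ones, had a mean distance of 0.367 to Lung_1, against 0.483 for the other 21 clones, in an exact permutation test over 253 pairs of clones with p = 0.0119. For Lung_2 the means were 0.407 and 0.518, with an exact permutation p of 0.0356. Adjusted over the 2 specimens the values were 0.0237 and 0.0356. With A libraries alone the exact permutation p was 0.0277 for Lung_1 and 0.0751 for Lung_2, or 0.0553 and 0.0751 adjusted. Differences between neighbours in this order were small beside the distance of 0.117 to 0.224 between the A and B libraries of a clone. Clone B, labelled non-intravasating, lay 0.167 from clone E, the smallest distance between any 2 clones. The permutation test takes no account of such likeness between clones. Clones E and T were also central among the clones, at ranks 3 and 6 of 23 by mean distance to the others, and how far that sets their order was not tested. The 2 lung specimens lay 0.173 apart and 0.332 to 0.377 from the tumors. The plot of distances gives all clones.

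**Figure D5:**
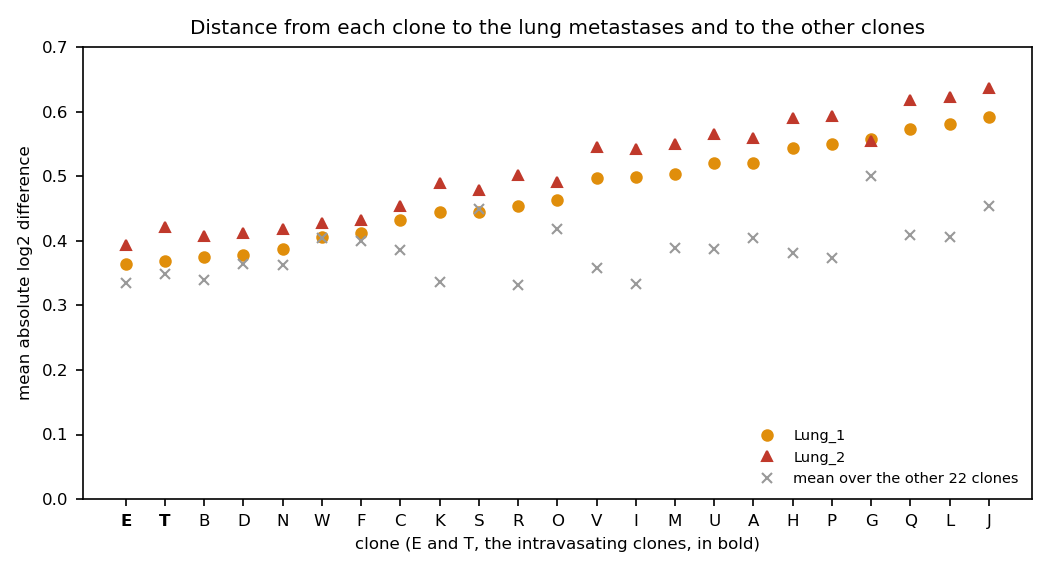
Mean absolute log2 difference (deposited scale) of Lung_1 and Lung_2 to each of the 23 clones over 14107 genes, with the mean distance of each clone to the other 22 clones as gray crosses and clones E and T in bold. Clone E is nearest to both specimens, at 0.365 and 0.394.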

How the data were processed

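RNA was column-purified and DNase-treated, and 100 ng was amplified with a NuGEN Ovation kit, sonicated and sequenced as 76-base HiSeq reads, per the labels' protocols. The authors' tools were Bowtie2, HTSeq and DESeq on mouse build mm10, per the submitters' processing notes. Versions, settings and strand handling are not given in the sources here. Overlapping, antisense or near-identical genes may thus share reads.

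The authors deposited 1 table of log2 values for 23481 genes in 54 libraries. From the values, these follow a variance-stabilising curve with a floor of 5.03 for genes without reads, which compresses differences between low genes. The curve was inverted to give the normalized counts printed in the text, and 100% of the values came out as whole reads within 0.01. Since the unit is log2, no count test was run. Every column had a sample (0 without), 27 gene symbols turned into dates were not named, and 1316 genes had no read.

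A gene entered the test with 10 or more normalized counts in at least 2 libraries. Testing was done with limma 3.58.1 in R 4.3.3 on the deposited log2 scale, with a mean-variance trend, two-sided, with Benjamini-Hochberg adjustment and a threshold of 0.05. Each specimen or clone gave 1 value, the mean of its A and B libraries, since nothing says that these are separate cultures or extractions, and p-values measure only the spread between these specimens and clones. The 2 libraries of a lung specimen correlated at 0.9939 to 0.9951 over genes. The test was also run on simulated data. There the lung specimens were given the spread of the clones, so the assumption of a shared spread was not checked. Summed marker shares were tested with exact permutation tests. The tumors entered only a second fit of all 27 specimens and clones.

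The genes named were the 15 higher and 15 lower with the largest difference, and the same among genes with a clone median of at least 100. All of these were past the threshold, with at least 50 counts in the higher group. All 4 lung libraries also lay on the same side of the clone median. In each of 46 lists, up to 4 members per direction past the threshold were named without these limits on counts and libraries. The defining genes of each list were added whatever their result. Other list members are named where a count turned on them. The members and lists were chosen with earlier results of these data known. Gene coordinates are from GENCODE M21 (GRCm38, equal to mm10), and promoter windows from RefSeq GRCm38.p6. The alternatives were the library letter, the filter on low values, the scale, the normalization, the variance model, the non-intravasating clones alone and leaving out each specimen or clone. A few genes that this rule names are not reported here.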

Additional observations from a re-analysis of the deposited data

Results flagged for a closer look

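Of 208 named genes checked, 12 had 1 of the 4 lung libraries far from the other 3 by Dixon's test. Chance gives about 1 in 20 for separate values, which is near 12 of 208. The 4 libraries come in pairs from the same specimens and are not separate values. The genes below are therefore listed for a closer look only. The library Lung_1_B stood apart, at 7.43 normalized counts of the endothelial gene Pecam1, 66932 of Vim, 9141 of the fatty acid synthase Fasn and 7907 of the basement membrane gene Hspg2. Lung_1_A stood apart at 1748 for Msln and 2308 for Itgb2. Lung_2_B stood apart at 31445 for the proliferation marker Mki67, 1986 for the desaturase Fads1, 1242 for Fkbp5, 1875 for Ei24 and 0 for S100a9. S100a9 had under 1 count in every lung library. Lung_2_A stood apart at 279 for Aldh1l2, a mitochondrial folate enzyme.

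For 20 named genes the lung metastases differed from the tumors by limma, each one higher in the lung metastases. Macrophage and leukocyte genes were the most frequent, with log2 differences of 1.49 for Lyz2, 0.95 for Msr1, 0.55 for C1qa, 1.27 for C1qb, 1.45 for C1qc, 0.97 for Laptm5, 0.56 for Tyrobp, 0.79 for Ctss and 0.92 for H2-Aa. Secreted and matrix genes were C4b at 2.28, Col6a3 at 1.64 and Timp3 at 1.62. Signaling genes were Grem1 at 1.15, Tgfbr1 at 1.15, Dkk2 at 0.66, Axin2 at 0.78 and Ereg at 1.16. The others were the mesothelial and kidney transcription factor Wt1 at 0.95, the noncoding RNA Meg3 at 0.82 and the linker histone gene Hist1h1c at 1.06.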

How the results depend on the processing

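Of 152 named genes past the threshold, each under 38 alternatives, 54 kept their call throughout and 107 in every alternative other than leaving out a lung specimen, and 0 changed direction. Without Lung_1 65 lost their call and without Lung_2 91. The number of higher genes, 1628, became 1060 with B libraries only, 6855 with no filter on low values, 819 with a count of at least 50 in 2 libraries and 1063 after quantile normalization. Requiring a log2 difference of at least 1 left 489 higher and 94 lower genes, and calls shared by the A and B libraries, a choice made after seeing the data, numbered 913 and 408. Leaving out 1 lung specimen or clone gave 472 to 1778 higher and 108 to 932 lower genes, and 1 to 31 higher interferon genes, where a single remaining lung specimen was assumed to vary like the clones. A library-level fit with the library letter as a replicate block gave 1357 higher and 850 lower genes. The letters pair no cultures by any label, and the A minus B differences correlated between specimens or clones with a median of 0.0539. Against the tumors, 2 against 2 specimens alone gave 2292 higher and 2031 lower genes and the specimen number as a replicate block 2471 and 2119. The correlation of these numbers was -0.0981, and they are no stated pairing. Leaving out 1 specimen gave 52 to 216 higher and 1 to 5 lower, and lower genes were 20 with A libraries only and 41 with B only. With A libraries only 5 host lists passed, and the distance of clones E and T to Lung_2 minus that of the others was -0.0949 (exact permutation p = 0.0751). Where no cause follows from fewer genes or samples, the cause was not tested. Genes of a few counts are limited by depth. The lung A libraries held more of them than the B libraries with fewer reads in all, and the cause was not tested.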
